A study of Homo sapiens with 22 samples.

Results

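CASC15-003 knockdown was set against CASC15-004 knockdown in SH-SY5Y cells after 7 days of retinoic acid. CASC15 makes long non-coding RNAs from a locus linked to neuroblastoma risk, and both shRNA sets aim at its transcripts. The comparison takes 5 of the 22 libraries of the series, chosen by title: sh003 sh1 batch 2, sh003 sh2 batch 1 and sh003 sh2 batch 2 against sh004 sh1 batch 2 and sh004 sh2 batch 2. Batch is the number in the title, and what it marks is not given further. SH-SY5Y is an established human neuroblastoma line. All cells carried a lentiviral shRNA and were selected with puromycin as stable populations. The day 7 cells had retinoic acid at a dose the labels give as 10 mM, with serum given as 1% in one label and 10% in another. The control, with 1 library in each of batches 1 and 2 at day 7, carried a scrambled shRNA with no mammalian target. The other libraries drawn on are the day 0 cells in 10% serum, with 3 sh003, 2 sh004 and 3 control libraries, and spheres, with 2 sh003, 2 sh004 and 1 control library. Each sh004 library of a day carries a different shRNA, and all monolayer sh004 libraries are of batch 2.

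Retinoic acid enters cells, binds nuclear receptors and drives SH-SY5Y cells out of division and towards a neuron-like state, and CYP26A1 and CYP26B1, the enzymes that degrade it, are among the genes it switches on. An shRNA is cut to a short duplex whose antisense strand pairs with a matching RNA and directs its cleavage. NF-kB is a family of transcription factors held in the cytoplasm by IkB proteins until an inflammatory or danger signal removes them. In many cell types it switches on chemokines, adhesion molecules, survival genes and its own inhibitors.

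The 4 shRNA target sequences are shown because they decide which CASC15 transcripts each knockdown can reach. Capitals mark the bases that pair with positions 2 to 8 of the antisense strand, its seed.
sh003 sh1: ctagcactgacctCCTTCATt
sh003 sh2: ctttccatcagccAACAATAt
sh004 sh1: caggctgttcccaGGGATTTa
sh004 sh2: taggaataccttaCATCCAAt
In GENCODE release 29 on GRCh38 each sequence matched transcripts of CASC15 and of no other gene, on the plus strand, 2 of the 8 annotated transcripts each. The sh003 sites lie at chr6:21668702-21668722 and chr6:21668743-21668763, with starts 41 bases apart in a single internal exon. The sh004 sites lie at chr6:22146977-22146997 and chr6:22146898-22146918, with starts 79 bases apart in the first exon of both transcripts they match. How the names CASC15-003 and CASC15-004 map to these annotated transcripts was not worked out. The pairs of sites are 478 kb apart, no annotated transcript holds both, and the 4 seeds differ from each other.

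The day 7 libraries held 32.7, 16.5 and 27.8 M assigned reads with sh003, 37.9 and 28.3 M with sh004 and 15.4 and 32.4 M in controls. Values are RPKM, reads per kilobase of gene and per M assigned reads, with M for mega. Differences are log2(RPKM + 0.5) of sh003 minus sh004, so they understate the change of genes with low values. The tests are from limma over 19461 genes, and calls are genes with adjusted p (Benjamini-Hochberg) under 0.05. Nothing says that libraries came from separate cultures, so the p-values rest on a spread that may be technical. Per library, 77 genes at RPKM 5 or above in all 9 batch 2 libraries had 0 reads in all 4 batch 1 libraries. TAPBP and NEU1 are among them, and such a 0 may be a failed estimate. The culture tag of sh003 sh1 batch 2 says not differentiated, against its title, and the tag of the day 0 library sh003 sh2 batch 1 says differentiated.

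CYP26A1 stood at 687, 588 and 571 RPKM in the sh003 libraries, against 301.3 and 9.001 RPKM in the sh004 libraries and 221 and 225 RPKM in controls. All 7 day 7 libraries were above the day 0 libraries, of which the highest had 0.271 RPKM, and this includes sh003 sh1 batch 2. The lowest day 7 level was that of sh004 sh2. CYP26B1 stood at 1080, 1162 and 990 RPKM with sh003, against 782 and 85.7 RPKM with sh004 and 1137 and 930 RPKM in controls. Neither passed the test (log2 difference 3.52, adjusted p = 0.250 for CYP26A1, and 2.05, adjusted p = 0.295 for CYP26B1, limma). Across all genes sh003 sh1 batch 2 correlated with sh004 sh1 batch 2 at r = 0.973, the same as with sh003 sh2 batch 2 at 0.973. The correlation of sh004 sh1 with sh004 sh2 was 0.947. All these libraries are of batch 2. The sh003 sh2 batch 1 library correlated with sh003 sh2 batch 2, the same shRNA, at 0.693 and with the batch 1 control at 0.964. With the sh004 libraries it correlated at 0.692 and 0.665. These are descriptions over 19461 genes.

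Of the noradrenergic neuroblast markers, PHOX2A, which encodes a homeobox factor of sympathetic neurons, lay between 379.6 and 536 RPKM in sh003, at 293 and 454 RPKM in sh004 and at 486.5 and 389 RPKM in control libraries. TH, the enzyme that starts catecholamine synthesis, was under 1 RPKM in all 7. Of 10 endothelial and blood markers none reached RPKM 1 in a day 7 library, with PECAM1, CDH5, CD3E and HBB at 0 in all 7. Their summed level ranged from 0.260 to 0.836 RPKM with sh003, from 0.324 to 0.469 RPKM with sh004 and from 0.334 to 0.604 RPKM in controls. Of 10 Schwann and glial markers 3 passed the filter, and the summed level, mostly PMP22, was 14.6 to 21.0 RPKM with sh003, 20.3 to 39.5 RPKM with sh004 and 14.1 to 16.9 RPKM in controls. FABP7 was at 0 in all 7.

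CASC15 itself (ENSG00000272168, chromosome 6) was read at 2.08, 3.27 and 3.38 RPKM in the sh003 libraries, against 1.31 and 1.48 RPKM in the sh004 libraries and 3.33 and 3.26 RPKM in controls. The sh003 and sh004 groups did not overlap, and both sh004 libraries were below both controls. The sh003 sh2 libraries lay at the control level and sh003 sh1 lay below it. The difference was 0.83 ± 0.27 (SE), with adjusted p = 0.280. With batch as a block it was 0.77 ± 0.18, with adjusted p = 0.0860. The value sums all transcripts of the gene, so it does not show the level of CASC15-003 or CASC15-004. Of its neighbours and the related genes on the list, SOX4, CDKAL1, E2F3, USP36, CHD7 and SOX9, none passed the test in the all-batch, batch 2 or block fit, with log2 differences from -1.32 for CDKAL1 to 0.20 for USP36. CDKAL1 had 5.02, 4.59 and 6.93 RPKM with sh003, against 7.17 and 28.2 RPKM with sh004.

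The all-batch fit called 4 genes, 0.0206% of those tested: ST8SIA6, COL26A1 and PLAGL1 were higher and BCL2A1 lower with sh003. These are 4 of the 5 genes that the comparison had been characterised by, so their calls are no independent support. With batch as a block, 70 genes were higher, 0.36% of those tested, and 69 lower, 0.355%. The 70 include the 3 higher genes and the 69 include BCL2A1. The block count was 7 without sh003 sh2 batch 2, 42 without sh003 sh2 batch 1, 356 without sh003 sh1, 2271 without sh004 sh1 and 64 without sh004 sh2. It was 36 without either day 7 control, 38 to 60 without a day 0 library of batch 1 or 2 of sh003 or control, 8 with the 7 day 7 libraries alone and 55 with voom. The batch 2 libraries alone, 2 against 2, called 5 genes, 0.0257%, and none of these 4 was among them. All 139 genes called with the block had the same sign of difference in batch 2 alone, which shares 4 of the 5 libraries. Of all genes, 9683 of the 10200 with a positive and 8102 of the 9261 with a negative block difference did so too. For scale, the groups did not overlap for 16% of all genes in the higher direction and for 12.9% in the lower direction, and the median log2 difference of all genes was 0.09 in the all-batch fit and 0.02 with the block. At an unadjusted p under 0.05, 1278 of all 19461 genes were higher and 1052 lower in the all-batch fit, 1226 and 1061 in batch 2 alone, and 1939 and 1689 with the block.

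ST8SIA6 encodes a sialyltransferase that adds sialic acids in alpha2,8 linkage to glycans. It was read at 7.40, 13.6 and 11.4 RPKM with sh003, against 1.39 and 0.336 RPKM with sh004 and 2.82 and 1.18 RPKM in controls. All sh003 libraries were above all others. The log2 difference was 3.13 ± 0.41 (SE), adjusted p = 0.0435, 2.95 in batch 2 alone (adjusted p = 0.364) and 2.99 with the block (adjusted p = 0.00991). At day 0 it was at or under 0.182 RPKM in all 8 libraries.

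COL26A1, a collagen gene, was read at 15.2, 19.5 and 22.6 RPKM with sh003, against 3.17 and 2.26 RPKM with sh004 and 13.5 and 14.7 RPKM in controls. The sh004 libraries were low and the controls sat just under the sh003 libraries. The log2 difference was 2.60 ± 0.30, adjusted p = 0.0435, 2.58 in batch 2 alone (adjusted p = 0.343) and 2.65 with the block (adjusted p = 0.00816). Set against the same controls with the block, sh003 differed by 0.39 (adjusted p = 0.604) and sh004 by -2.26 (adjusted p = 0.0345). In spheres its log2 difference was -0.91, the other direction. The sphere levels were 0.918 and 3.13 RPKM with sh003, against 3.44 and 4.09 RPKM with sh004 and 21.5 RPKM in the control.

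PLAGL1, an imprinted zinc finger factor that restrains division, was read at 7.81, 5.45 and 7.48 RPKM with sh003, against 2.001 and 1.70 RPKM with sh004 and 5.01 and 4.45 RPKM in controls. Its log2 difference was 1.64 ± 0.21, adjusted p = 0.0435, 1.79 in batch 2 alone (adjusted p = 0.278) and 1.70 with the block (adjusted p = 0.00991). The difference was 1.1 at day 0 and 1.47 in spheres. The sphere levels were 2.96 and 5.81 RPKM with sh003, against 1.45 and 0.961 RPKM with sh004 and 1.40 RPKM in the control.

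BCL2A1 encodes a BCL2 relative that blocks apoptosis and is an NF-kB target. It had 0.113, 0 and 0.0331 RPKM with sh003, against 15.8 and 3.67 RPKM with sh004 and 0.120 and 0.0567 RPKM in controls. The reads behind these were 4, 0 and 1 with sh003, against 654 and 113 with sh004 and 2 and 2 in controls. At day 7 it was close to absent in all but the sh004 libraries, which differed between the shRNAs. BCL2A1 differed by -3.92 ± 0.50, adjusted p = 0.0435, -3.85 in batch 2 alone (adjusted p = 0.375) and -3.92 with the block (adjusted p = 0.00933).

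CDC20 activates the anaphase-promoting complex, which ends mitosis. It was read at 43.3, 5.27 and 4.40 RPKM with sh003, against 54.0 and 33.5 RPKM with sh004 and 13.3 and 18.3 RPKM in controls. The groups overlapped, because sh003 sh1 batch 2 lay between the sh004 libraries while both sh003 sh2 libraries were below the controls. The log2 difference was -2.00 ± 0.73, adjusted p = 0.315, and -1.72 with the block, adjusted p = 0.229. Without sh003 sh1 batch 2 it was -3.02 (adjusted p = 0.0259), and with the block -2.82 (adjusted p = 0.00711).

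**Figure D1:**
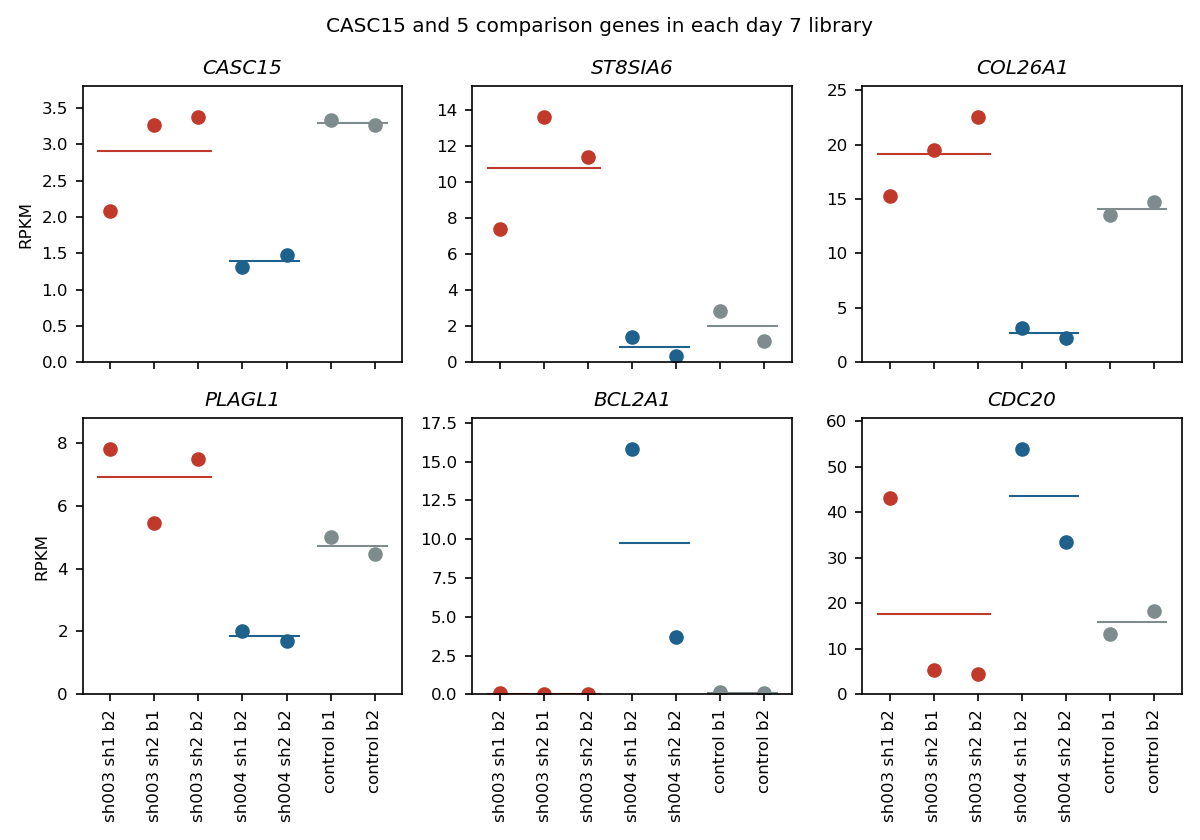
RPKM (y axis, linear, from 0) of CASC15 and 5 genes in each day 7 library (x axis, with shRNA and batch, b1 or b2). Points are libraries and lines are group means: ST8SIA6, COL26A1 and PLAGL1 lie higher and BCL2A1 lower in all sh003 than in both sh004 libraries, while CDC20 is at 43.3 RPKM in sh003 sh1 and at 5.27 and 4.40 RPKM in the sh003 sh2 libraries.

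The calls rest on few libraries. The ST8SIA6, COL26A1, PLAGL1 and BCL2A1 calls held in 7, 10, 9 and 8 of the 27, 27, 27 and 26 alternatives of the all-batch fit in which each was tested. With the block they held in 24, 24, 24 and 22 of 26, 26, 26 and 25. None changed sign.

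Most NF-kB target genes were lower with sh003 than with sh004, and for most the sh004 libraries stood further above the controls. The list's median log2 difference from controls was 0.15 for sh003 and 2.6 for sh004 in the all-batch fit. Of 24 listed genes 21 were tested. With the block limma called 10 lower and 0 higher, beside 0.355% of all genes lower. At an unadjusted p under 0.05 in that fit, 17 were lower and 0 higher, beside 1689 and 1939 of all 19461 genes. With the block voom called 4 lower. The block calls numbered 1 without sh003 sh2 batch 2, 6 without sh004 sh2 and 4 with the 7 day 7 libraries alone. In the all-batch fit BCL2A1 was called and in batch 2 alone VCAM1. The median log2 difference of the 21 was -2.40 in the all-batch fit, -2.64 in batch 2 alone and -2.58 with the block, and with CXCL2, which had no reads with sh003, at its bound it was -2.40 in the all-batch fit and -2.58 with the block. Groups did not overlap for 17 of 21, all lower with sh003, beside 12.9% of all genes in that direction.

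VCAM1, an adhesion molecule that binds leukocyte integrins, was read at 0.00506, 0.0602 and 0.0298 RPKM with sh003, against 10.6 and 8.02 RPKM with sh004 and 0 and 0.0816 RPKM in controls. VCAM1 differed by -4.20 ± 0.60 (adjusted p = 0.0610), -4.23 in batch 2 alone (adjusted p = 0.0390) and -4.18 ± 0.18 with the block (adjusted p = 4.26e-06). It was one of 4 genes called lower in batch 2 alone.

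The inhibitors of the pathway were among the called genes. NFKBIA, which encodes IkB-alpha, was at 10.3, 14.8 and 11.1 RPKM with sh003, against 73.5 and 65.2 RPKM with sh004 and 11.96 and 8.21 RPKM in controls. The sh003 libraries were at the control level. Its log2 difference with the block was -2.64 ± 0.30 (adjusted p = 0.00816). TNFAIP3, a ubiquitin-editing enzyme that dampens the signal, was at 0.0549, 0.254 and 0.0646 RPKM with sh003, against 6.95 and 4.35 RPKM with sh004 and 0.0389 and 0.0799 RPKM in controls, a difference of -3.35 ± 0.47 (adjusted p = 0.0208). NFKBIE, another IkB gene, had a difference of -1.66 (adjusted p = 0.0427).

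The chemokine CXCL8, which draws neutrophils, was at 0.0539, 0.641 and 0.206 RPKM with sh003, against 23.3 and 25.8 RPKM with sh004 and 0.258 and 1.40 RPKM in controls. Its difference with the block was -5.01 ± 0.85 (adjusted p = 0.0367). BIRC3, a ubiquitin ligase of the inhibitor of apoptosis family, was at 0.258, 0.535 and 0.847 RPKM with sh003, against 16.9 and 9.93 RPKM with sh004 and 0.148 and 0.375 RPKM in controls, with a difference of -3.69 (adjusted p = 0.0397). SOD2, the mitochondrial superoxide dismutase, differed by -2.23 (adjusted p = 0.0287), TNFAIP2 by -2.58 (adjusted p = 0.0429) and NFKB1, which encodes the p105 precursor, by -1.35 (adjusted p = 0.0287).

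The subunits did not share one pattern. RELA, the main activating subunit, was at 27.3, 30.1 and 25.9 RPKM with sh003, against 29.1 and 23.6 RPKM with sh004, a difference of 0.02 with the block (adjusted p = 0.954). REL was near 1 RPKM in all. RELB and NFKB2, the subunits of the alternative branch, had differences of -2.60 and -1.96 with the block that did not pass the test (adjusted p = 0.0805 and 0.0888). CCL2 was the most abundant member, at 48.2, 111 and 54.9 RPKM with sh003, against 863 and 796 RPKM with sh004 and 57.5 and 34.4 RPKM in controls, and did not pass the test (log2 difference -3.87 with the block, adjusted p = 0.177).

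High values of the same genes were also seen away from sh004 at day 7. The median over the 10 called members was 0.884, 1.59 and 1.54 RPKM in the sh003 day 7 libraries, against 18.3 and 13.0 RPKM in the sh004 day 7 libraries and 1.57 and 1.92 RPKM in the day 7 controls. Both batch 3 day 0 libraries were high too, at 13.0 RPKM in sh003 sh1 and 10.9 RPKM in the control. At day 0 sh004 sh1 of batch 2 was at 5.22 RPKM and sh004 sh2 at 0.497 RPKM. No day 7 library is of batch 3, and without the batch 3 libraries 8 of the 21 genes were called lower with the block. In bulk RNA fewer cells of a type and less RNA per cell cannot be told apart.

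In spheres the median of the 10 genes was 9.21 RPKM in sh003 sh1 and 1.48 RPKM in sh003 sh2, against 12.1 and 10.4 RPKM in the sh004 spheres and 2.01 RPKM in the control sphere. The sh003 spheres thus lay on both sides. The median log2 difference of the 21 genes was -2.00 in spheres, beside 0.07 for all genes tested. At day 0 it was 0.57 without the block and -0.29 with it.

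**Figure D2:**
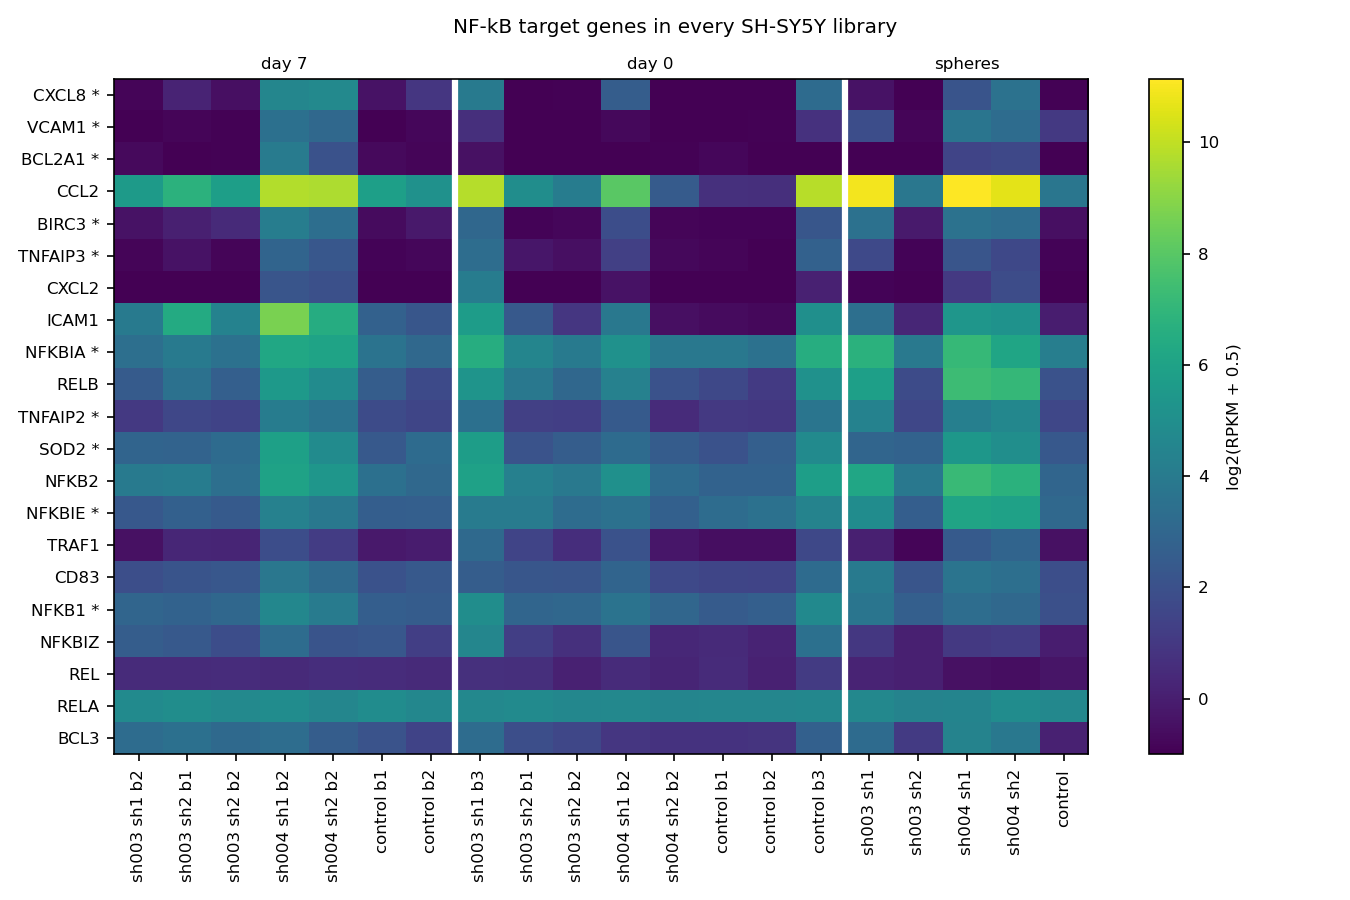
Colour gives log2(RPKM + 0.5) of 21 NF-kB target genes (rows, ordered by the log2 difference with the block) in 20 libraries (columns, by day, shRNA and batch b1 to b3). An asterisk marks the 10 genes called lower with sh003 at day 7: their median is 18.3 and 13.0 RPKM in the sh004 day 7 libraries and also high in the batch 3 day 0 libraries, in sh003 sh1 spheres and in both sh004 spheres.

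The upstream sequences of 4 called members are shown because they hold a match of the motif that gives the list its name. Each run gives the 150 bases before the RefSeq start on GRCh38.p14, on the strand of the gene, with matches of the NF-kB kappaB consensus in capitals.
VCAM1, chr1:100719592-100719741, plus strand: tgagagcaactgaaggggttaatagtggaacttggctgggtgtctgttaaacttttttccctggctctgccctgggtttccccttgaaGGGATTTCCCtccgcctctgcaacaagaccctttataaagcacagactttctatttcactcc
NFKBIA, chr14:35404750-35404899, minus strand: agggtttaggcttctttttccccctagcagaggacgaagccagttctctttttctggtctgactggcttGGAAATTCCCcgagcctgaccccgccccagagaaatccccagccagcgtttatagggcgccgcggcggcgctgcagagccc
TNFAIP3, chr6:137867109-137867258, plus strand: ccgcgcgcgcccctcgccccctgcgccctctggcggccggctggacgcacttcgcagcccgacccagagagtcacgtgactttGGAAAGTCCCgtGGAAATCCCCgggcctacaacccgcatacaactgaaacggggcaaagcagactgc
BIRC3, chr11:102317334-102317483, plus strand: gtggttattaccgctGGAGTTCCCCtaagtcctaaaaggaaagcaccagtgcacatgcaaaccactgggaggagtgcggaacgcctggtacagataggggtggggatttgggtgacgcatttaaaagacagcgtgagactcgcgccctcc
Over the 250 bases before the start, on both strands and with overlapping matches allowed, 10 of the 20 listed promoters held a match, and 3498 of all 35116 promoters (10.0%) did. A match is a run of letters and not a shown binding site. The called members BCL2A1, CXCL8, SOD2 and TNFAIP2 had no match in this window, and REL, which was not called, had 2 overlapping ones.

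Of the complement and chemokine list 11 of 18 tested genes had a higher mean with sh003, with a median log2 difference of 0.43 in the all-batch fit and 0.36 with the block. With the block limma called C3 lower and 0 higher, beside 0.355% and 0.36% of all genes, and voom called 0 in either direction. Unadjusted p with the block was under 0.05 for 7 higher and 3 lower genes of the list, beside 1939 and 1689 of all 19461 genes. Among genes called in the block fit at RPKM 2 or above, with groups that did not overlap, the 12 with the largest lower change were OR2I1P, C3, FDCSP, LCN2, CXCL8, CXCL10, VCAM1, BCL2A1, TNFAIP6, BIRC3, SGPP2 and TNFAIP3. C3, the central complement protein, was at 0.140, 0.0437 and 0.130 RPKM with sh003, against 38.1 and 16.9 RPKM with sh004 and 0 and 0.115 RPKM in controls (-5.36 with the block, adjusted p = 0.00816). LCN2, which binds bacterial iron carriers, was at 0, 0.0295 and 0 RPKM with sh003, against 41.0 and 6.56 RPKM with sh004 and 0.0316 and 0 RPKM in controls (-5.08, adjusted p = 0.0110). Like BCL2A1, it was several times higher with sh004 sh1 than with sh004 sh2.

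CXCL10, an interferon-induced chemokine, was at 0.0261, 0.259 and 0.123 RPKM with sh003, against 31.7 and 10.1 RPKM with sh004 and 0 and 0 RPKM in controls (-4.93, adjusted p = 0.0370). A separate list of 17 tested interferon-stimulated genes, which does not include CXCL10, had a median of -0.07 in the all-batch fit and 0 called in any of the 3 limma fits or with voom. At an unadjusted p under 0.05 in the all-batch fit, 1 was lower and 2 higher, beside 1052 and 1278 of all 19461 genes. SGPP2, a phosphatase of sphingosine 1-phosphate, was at 0.321, 0.400 and 0.281 RPKM with sh003, against 5.07 and 12.6 RPKM with sh004. TNFAIP6, a hyaluronan-binding protein, was at 0.0388, 0.154 and 0.206 RPKM with sh003, against 8.44 and 10.0 RPKM with sh004.

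FDCSP, which encodes a small secreted peptide, was at 0.811, 1.29 and 0.828 RPKM with sh003, against 49.6 and 62.2 RPKM with sh004 and 0.115 and 0.218 RPKM in controls. It was called in batch 2 alone (-5.41, adjusted p = 0.0390) and with the block (-5.29, adjusted p = 0.00816). OR2I1P, an olfactory receptor pseudogene entry on chromosome 6, had 0 reads in all 3 sh003 libraries, against 2487 and 2833 reads, or 69.2 and 106 RPKM, with sh004 and 0 and 2 reads in controls. The sh003 batch 1 library and the batch 1 control are among those at 0. Whether their 0 is a failed estimate, as it may be for TAPBP, was not tested. With a floor of 3 reads over the sh003 group, its batch 1 library included, OR2I1P was at least 2123-fold lower. It was called with the block (adjusted p = 2.66e-07). Its exons overlap UBD, an NF-kB-inducible ubiquitin-like gene, and GABBR1 on the opposite strand, by 16.9% and 14.6% of its exon bases in GENCODE release 29. The counted OR2I1P entry is 948 bases long, and how much of it is shared was not worked out. Whether reads were counted by strand is not given, so reads in shared bases cannot be assigned to OR2I1P or UBD. UBD also had 0 RPKM in all sh003 libraries, against 1.55 and 4.75 RPKM with sh004. The other genes called in batch 2 alone, MIR1229 and RNU6ATAC, are 69 and 126 bases long and did not exceed 1.12 RPKM in the sh003 and sh004 libraries.

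Mitosis genes had low levels in both sh003 sh2 libraries and not in sh003 sh1 batch 2. All 30 mitosis genes had a lower mean with sh003, with a median log2 difference of -1.50 in the all-batch fit, -1.24 in batch 2 alone and -1.28 with the block. limma called 0 of 30 in each of these fits and voom 0. At an unadjusted p under 0.05, 30 were lower in the all-batch fit, 1 in batch 2 alone and 29 with the block. Of all 19461 genes, 1052, 1061 and 1689 were lower in these fits. Groups did not overlap for 20 mitosis genes, all lower, beside 12.9% of all genes in that direction. The mean log2 level of the list was 4.13, 2.24 and 2.14 with sh003, against 4.26 and 4.53 with sh004 and 3.15 and 4.08 in controls. Without sh003 sh1 batch 2, the block fit called 29 of 30 lower, beside 216 of all 19461 genes, with a median of -1.93. Without sh003 sh2 batch 2 it called 0 of 30, with a median of -0.79. The median with the block was -1.45 without sh004 sh1 and -1.19 without sh004 sh2.

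HMMR, a spindle-associated protein, showed the split between libraries at 11.2, 1.61 and 1.96 RPKM with sh003, against 13.1 and 17.9 RPKM with sh004 and 3.21 and 9.38 RPKM in controls. CCNB1, the cyclin that drives entry into mitosis, was at 46.0, 10.8 and 7.41 RPKM with sh003, against 54.5 and 60.5 RPKM with sh004 and 18.0 and 31.9 RPKM in controls. In both, sh003 sh1 batch 2 was close to sh004 sh1. At day 0 the list's median difference was -0.84, or -0.44 with the block, and in spheres it was 0.94.

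DNA replication genes had lower mean levels in all 3 sh003 libraries than in both sh004 libraries. All 29 had a negative difference, with a median of -0.85 in the all-batch fit, -0.87 in batch 2 alone and -0.83 with the block. Groups did not overlap for 26, all lower, beside 12.9% of all genes in that direction. The mean log2 level was 3.72, 3.57 and 3.43 with sh003, against 4.20 and 4.65 with sh004 and 4.25 and 4.50 in controls. With the block 1 was called lower, beside 0.355% of all genes. This was FEN1, which trims the flaps of Okazaki fragments. It was at 36.6, 34.0 and 26.5 RPKM with sh003, against 56.4 and 71.9 RPKM with sh004 and 54.6 and 51.7 RPKM in controls (-0.98 ± 0.18, adjusted p = 0.0439). The sh004 libraries were near the controls here and the sh003 libraries below them. RRM2, a subunit of the enzyme that makes deoxynucleotides, was at 22.9, 12.3 and 14.4 RPKM with sh003, against 34.7 and 38.9 RPKM with sh004, and did not pass the test (-0.98 with the block, adjusted p = 0.0702). The list's median with the block was -1.01 without sh004 sh1 and -0.55 without sh004 sh2. Without sh003 sh1 batch 2 the block fit called 6 of the 29 lower, beside 216 of all 19461 genes. Without sh003 sh2 batch 2 it called 0, with a median of -0.64.

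**Figure D3:**
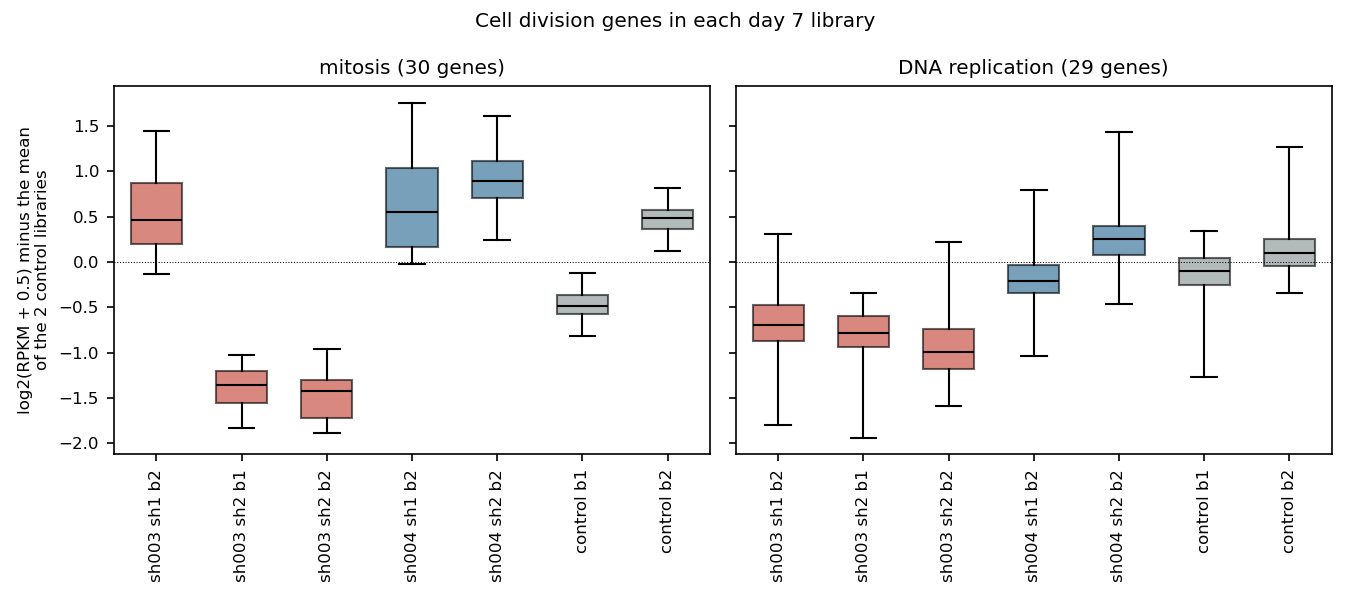
Box plots of log2(RPKM + 0.5) minus the mean of the 2 control libraries (y axis) over 30 mitosis genes (left) and 29 DNA replication genes (right) in each day 7 library; boxes span the quartiles and whiskers the full range. The mitosis boxes of the sh003 sh2 libraries lie below every other library and that of sh003 sh1 does not, while for DNA replication the mean level of each sh003 library, at most 3.72, is below that of each sh004 and control library, at least 4.20.

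Among genes of cell death, BID, a BH3-only protein that links death receptors to mitochondria, was at 6.33, 8.56 and 6.96 RPKM with sh003, against 15.9 and 13.3 RPKM with sh004 and 9.34 and 7.11 RPKM in controls (-1.04, adjusted p = 0.0277).

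Of the cholesterol synthesis genes 19 of 23 tested had a lower mean with sh003, beside 8281 of all 19461 genes. The list's median log2 difference was -0.47 in the all-batch fit and -0.56 with the block. Without sh004 sh2 the median with the block was -0.13, and without sh004 sh1 it was -0.79. In spheres the list's median was 0.85, the other direction, beside 0.07 for all genes tested. FDPS, which makes farnesyl pyrophosphate, and EBP, a sterol isomerase, were called lower with the block, beside 0.355% of all genes. FDPS was at 22.4, 20.8 and 20.3 RPKM with sh003, against 37.4 and 34.2 RPKM with sh004 and 22.3 and 23.3 RPKM in controls (-0.70, adjusted p = 0.0277), and 28.9% of its exon bases overlap an antisense gene, RUSC1-AS1. EBP was at 10.7, 9.20 and 8.22 RPKM with sh003, against 15.9 and 19.2 RPKM with sh004 and 12.7 and 12.8 RPKM in controls (-0.86, adjusted p = 0.0439). TFRC, the transferrin receptor, which is on the list of reference genes, was also called lower (-1.07, adjusted p = 0.0405). The 17 reference genes had a median of -0.36 in the all-batch fit and -0.27 with the block.

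Genes higher with sh003 formed no single list. Among genes called in that fit at RPKM 2 or above, with groups that did not overlap, the 12 with the largest higher change were PLN, ST8SIA6, RGS2, CYTL1, CTSB, COL26A1, LIFR, POU2AF2, PANX2, SLIT2, SYTL5 and LINC03051. PLN, which encodes the calcium pump regulator phospholamban, was at 23.4, 5.04 and 38.3 RPKM with sh003, against 1.73 and 0.0706 RPKM with sh004 and 1.89 and 1.03 RPKM in controls. The log2 difference was 4.11 ± 0.74 (adjusted p = 0.0427), and the sh003 batch 1 library was the lowest of the 3.

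RGS2, which limits signalling through G proteins, was at 112, 90.5 and 131 RPKM with sh003, against 23.4 and 11.5 RPKM with sh004 and 41.9 and 27.1 RPKM in controls (2.72, adjusted p = 0.0308). CTSB, the lysosomal protease cathepsin B, was the most abundant of the 12, at 468.5, 459.5 and 753 RPKM with sh003, against 157 and 49.99 RPKM with sh004 and 208 and 183 RPKM in controls (2.65, adjusted p = 0.0277). For both genes the sh004 libraries lay below and the sh003 libraries above the controls. CYTL1, a secreted protein gene, was at 4.18, 4.60 and 8.26 RPKM with sh003, against 0.394 and 0.529 RPKM with sh004 and 1.10 and 1.11 RPKM in controls (2.71, adjusted p = 0.00816).

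LIFR, the receptor for leukaemia inhibitory factor, was at 23.2, 30.5 and 30.5 RPKM with sh003, against 6.26 and 3.67 RPKM with sh004 and 15.3 and 10.1 RPKM in controls (2.25, adjusted p = 0.0134). IL6ST, its signalling partner gp130, was also called, though it was named here only after its value was seen. It was at 60.2, 50.7 and 95.6 RPKM with sh003, against 29.9 and 22.2 RPKM with sh004 and 25.7 and 33.7 RPKM in controls (1.46, adjusted p = 0.0277). SPRED1, an inhibitor of the RAS and ERK pathway, was at 16.6, 15.1 and 17.4 RPKM with sh003, against 8.24 and 8.21 RPKM with sh004 and 12.7 and 11.1 RPKM in controls (0.89, adjusted p = 0.0353).

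Of 30 tested axon guidance genes limma called 3 higher with the block, beside 0.36% of all genes, and 0 lower. At an unadjusted p under 0.05 in that fit, 8 were higher and 4 lower, beside 1939 and 1689 of all 19461 genes. With voom and the block 1 was called higher. The median of the list was 0.44 in the all-batch fit and 0.38 with the block. SLIT2, a ligand that repels axons through ROBO receptors, was at 5.55, 10.9 and 10.6 RPKM with sh003, against 1.92 and 1.06 RPKM with sh004 and 3.56 and 2.91 RPKM in controls (2.15, adjusted p = 0.0116). NRP1, a receptor for semaphorins and VEGF, was at 5.09, 10.1 and 12.02 RPKM with sh003, against 2.21 and 1.34 RPKM with sh004 and 1.48 and 1.11 RPKM in controls (1.99, adjusted p = 0.0405). NTN4, a netrin of basement membranes, was at 10.6, 11.8 and 14.2 RPKM with sh003, against 3.75 and 2.55 RPKM with sh004 and 9.26 and 4.75 RPKM in controls (1.68, adjusted p = 0.0287). For NRP1 both sh004 libraries were at the control level, and for NTN4 they were below it.

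Of 13 tested collagen genes 11 had a higher mean with sh003, with a median log2 difference of 1.06 in the all-batch fit and 0.92 with the block. COL26A1 alone was called, beside 0.36% of all genes called higher with the block. COL5A1, a chain of a fibril-forming collagen, was at 42.8, 39.6 and 27.4 RPKM with sh003, against 27.3 and 2.08 RPKM with sh004, and did not pass the test (adjusted p = 0.330 with the block). Without sh004 sh2 the list's median with the block was 0.37 and without sh004 sh1 it was 1.46. Of 17 tested neurotrophic receptor genes 12 had a higher mean with sh003, with a median of 0.49 in the all-batch fit and 0.44 with the block. At an unadjusted limma p under 0.05 with the block, 7 were higher and 2 lower, beside 1939 and 1689 of all 19461 genes. The only call went the other way. NGFR, the p75 neurotrophin receptor, was called lower with the block, at 0.575, 0.483 and 0.174 RPKM with sh003, against 2.46 and 4.30 RPKM with sh004 and 0.596 and 0.550 RPKM in controls (-2.21, adjusted p = 0.0432).

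**Figure D4:**
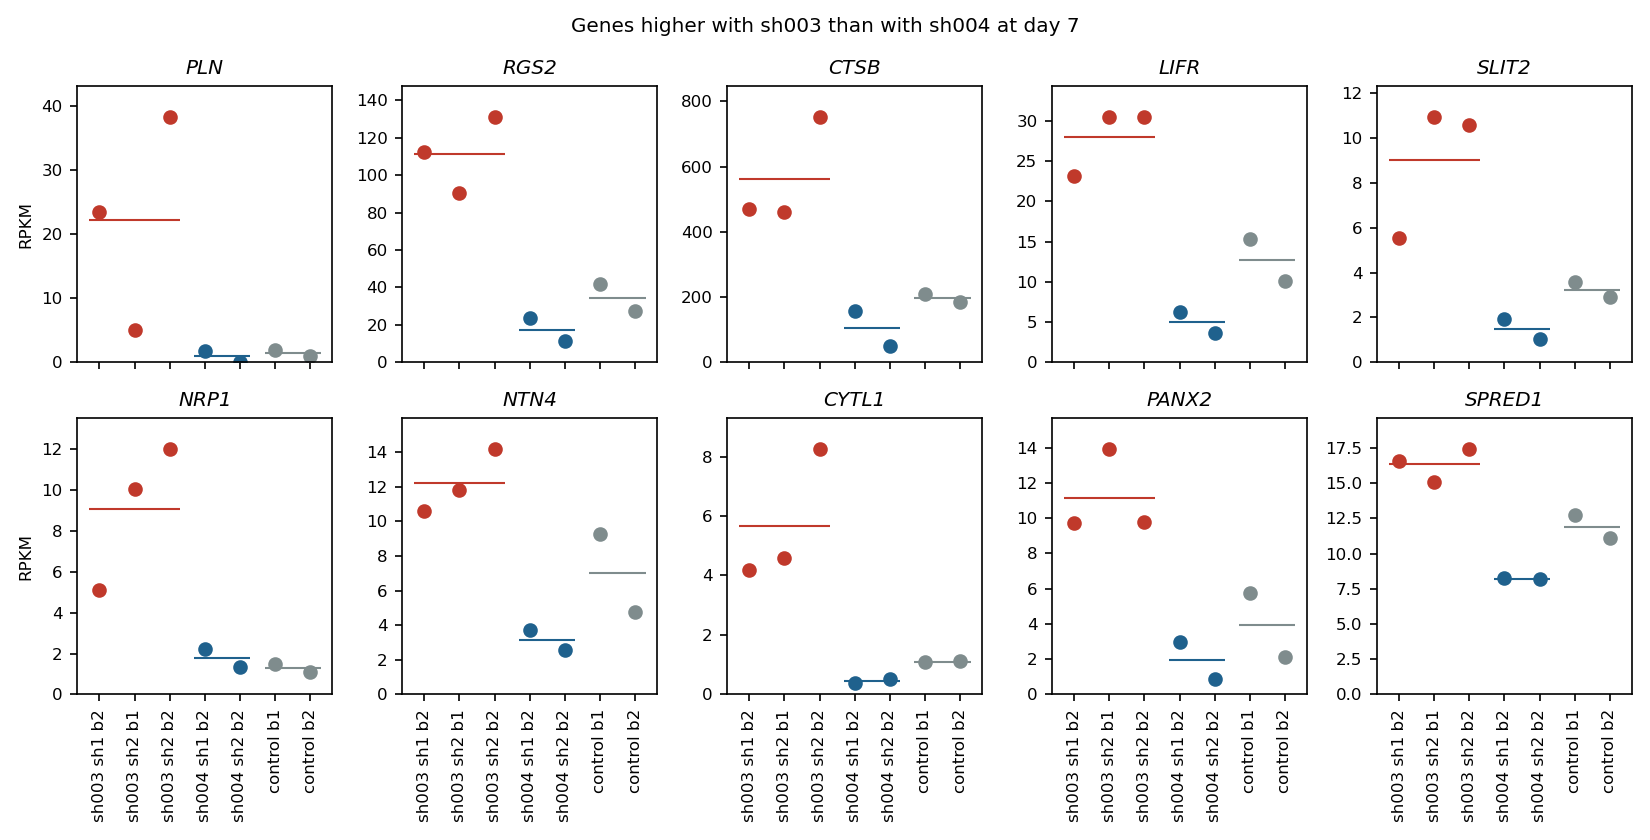
RPKM (y axis, linear, from 0) of 10 of the genes called higher with sh003 in the block fit, in each day 7 library (x axis, with shRNA and batch). Points are libraries and lines are group means: RGS2 and CTSB sit above the controls with sh003 and NRP1 sits at 1.48 and 1.11 RPKM in controls, close to sh004.

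Several neuroendocrine genes had their highest level in the sh004 sh2 library. CHGA, a protein of secretory granules, was at 5.95, 20.6 and 5.59 RPKM with sh003, against 52.7 and 1080 RPKM with sh004 and 111 and 102 RPKM in controls. It did not pass the test (-4.94 with the block, adjusted p = 0.0805). DDC, a catecholamine enzyme, was at 0.726, 1.46 and 0.913 RPKM with sh003, against 5.77 and 51.9 RPKM with sh004 and 6.70 and 16.8 RPKM in controls (adjusted p = 0.0669). All sh003 libraries were below all others for both, and sh004 sh1 was below the controls.

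The 26 tested noradrenergic and catecholamine genes had a median log2 difference of -0.79 in the all-batch fit and with the block, and 0 were called by limma in the 3 fits or by voom. At an unadjusted p under 0.05, 10 were lower and 1 higher in the all-batch fit, beside 1052 and 1278 of all 19461 genes. Without sh004 sh2 the median with the block was -0.05, and without sh004 sh1 it was -1.70. For the 29 neurofilament, cytoskeleton and growth cone genes, of which 27 had a lower mean with sh003, the median was -0.66 with the block, -0.02 without sh004 sh2 and -1.51 without sh004 sh1. limma called 0 of them in the 3 fits and voom 0, with 3 lower and 1 higher at an unadjusted p under 0.05 in the all-batch fit, beside 1052 lower and 1278 higher of all 19461 genes.

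The growth genes IGF2 and DLK1 were also highest there. IGF2, a growth factor, was at 50.3, 19.6 and 9.88 RPKM with sh003, against 102 and 773 RPKM with sh004 and 353 and 333 RPKM in controls, and did not pass the test (-3.77 with the block, adjusted p = 0.136), and 73.7% of its exon bases are shared with a second entry of the same name. DLK1, a Notch ligand relative, was at 8.53, 10.4 and 4.45 RPKM with sh003, against 19.1 and 391 RPKM with sh004 and 49.3 and 115 RPKM in controls (adjusted p = 0.132). IGFBP6, which binds IGF2, ran the other way at 531, 409.5 and 430.5 RPKM with sh003, against 166 and 7.68 RPKM with sh004 and 182 and 56.9 RPKM in controls (3.43, adjusted p = 0.130).

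The 15 class I antigen presentation genes had a median of -1.45 in the all-batch fit but -0.26 in batch 2 alone and -0.37 with the block. TAPBP, a peptide-loading chaperone, was at 43.6, 0 and 36.9 RPKM with sh003, against 77.4 and 56.8 RPKM with sh004, and its 0 is in the sh003 batch 1 library, as is that of the batch 1 control. HLA-B was at 1.24, 0 and 3.03 RPKM with sh003, against 8.07 and 11.7 RPKM with sh004. Its controls had 0.0216 RPKM in batch 1 and 0.512 RPKM in batch 2, and its 0 is in the sh003 batch 1 library too. PSMB9, an immunoproteasome subunit, was called lower with the block at 0.309, 0 and 0.305 RPKM with sh003, against 1.60 and 1.77 RPKM with sh004 (-1.50, adjusted p = 0.0432). Its 0 is in the sh003 batch 1 library, and its controls had 0 RPKM in batch 1 and 0.201 RPKM in batch 2.

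Where controls stood was described for the genes called with the block, which share those controls. For the 70 higher genes the median log2 difference was 0.67 for sh003 minus control and -0.80 for sh004 minus control. For the 69 lower genes it was -0.10 for sh003 minus control and 1.70 for sh004 minus control. Of the 70, all 3 sh003 libraries lay on one side of both controls for 52 and both sh004 libraries for 52, beside 2169 and 3652 of all 10200 genes with a positive difference. Of the 69, the sh003 libraries did so for 20 and the sh004 libraries for 64, beside 2265 and 2764 of all 9261 genes with a negative difference.

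The difference between the knockdowns was then looked at in spheres, which the fits had not used. There 54 of the 70 genes had a higher mean with sh003 (77.1%, median log2 difference 0.51), beside 57.2% of all genes with a positive day 7 difference. Of the 69, 53 had a lower mean with sh003 (76.8%, median -1.29), beside 43.0% of all genes with a negative day 7 difference. The day 0 libraries entered the block fit, where they set batch terms and spread, so their values are a description. At day 0 the shares were 85.7% for the higher genes, beside 63.6%, and 46.4% for the lower genes, beside 59.3%. Some of the genes higher at day 7 had little signal in spheres, where PLN, POU2AF2 and SYTL5 were at or under 0.239 RPKM in all 5 sphere libraries.

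Against the same difference at day 0, 0 genes passed in the limma fit without the block and in voom, while 472 had an unadjusted limma p under 0.05. With the block 3 passed, 0.0154% of those tested, of which VCAM1 and OR2I1P were named above. VCAM1 differed by -4.18 at day 7 and by -0.12 at day 0, a difference of -4.06 ± 0.25 (adjusted p = 0.000166). The day 0 contrast of 3 sh003 with 2 sh004 libraries spans 3 batches on the sh003 side and batch 2 on the sh004 side.

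**Figure D5:**
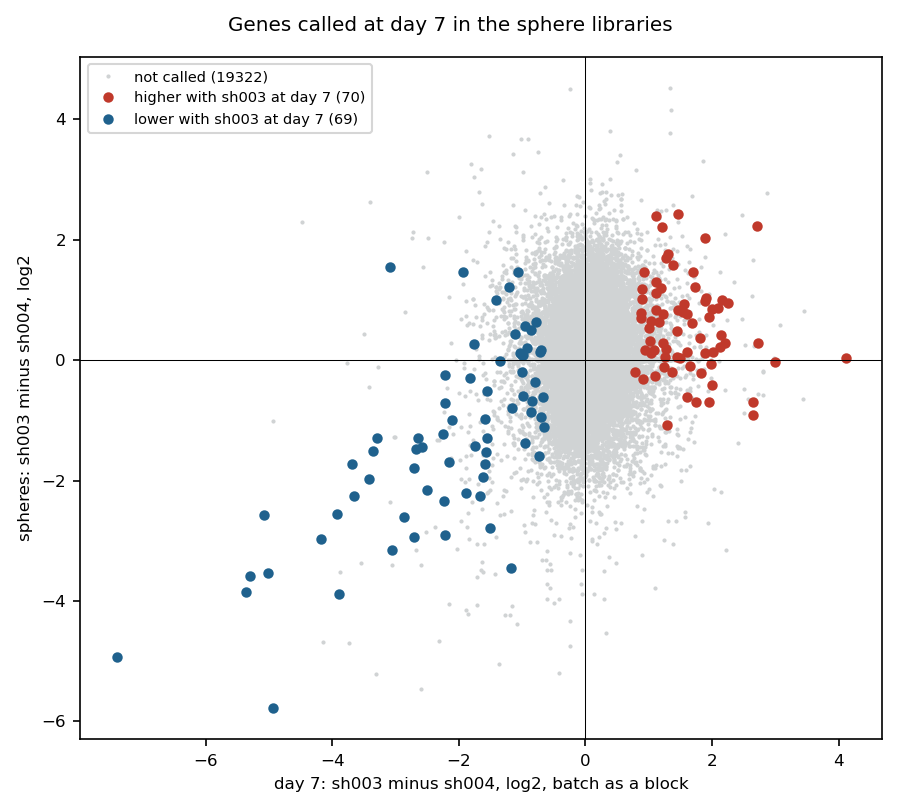
Log2 difference of sh003 minus sh004 at day 7 with batch as a block (x axis) and in spheres (y axis) for 19461 genes; red points are the 70 genes called higher and blue points the 69 called lower with sh003 at day 7, and grey points the others. Of the blue points 53 lie below 0 in spheres and of the red points 54 lie above it.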

How the data were processed

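Total RNA was sequenced with a stranded kit that removes ribosomal RNA, per the labels' protocols. TopHat, featureCounts and Subread were used with hg19, per the submitters' processing notes; versions, annotation and the strand setting are not given in the sources used here. The deposited values are RPKM for 63677 genes, of which 52526 were matched to a name in the reference tables. All RPKM gave whole reads with gene length and an estimated library total; the deposited sphere RPKM rest on totals that rotate from gene to gene, so sphere RPKM were recomputed from each library's own reads. Depth ran from 11.9 to 62.1 M assigned (M for mega) reads per SH-SY5Y library, and precision is that of the spread between libraries.

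A gene was kept if at least 2 of the 15 monolayer libraries had it at RPKM 1 or more. limma 3.58.1 in R 4.3.3, with a mean-variance trend, was fitted to log2(RPKM + 0.5) over all 15 libraries (9 residual degrees of freedom, prior 2.12) and over the 9 libraries of batch 2 (3, prior 1.24). The titles number the batches, so the number marks a shared batch; deviations from the group means (sh003 and control groups) correlated at 0.716 to 0.942 within a batch and at -0.920 to 0.744 between batches, where pairs of batches 2 and 3 were positive; centring on groups of 2 sets part of this. The fit with batch as a block (7, prior 3.03) is therefore printed beside the others, with 139 calls against 4. That it leads some paragraphs, and the rule for naming its genes, were decided after the data were seen. Fits were tested on simulated data with independent noise and no batch term. That test cannot show how the fits behave under the batch differences of these libraries.

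The compared libraries, the 33 gene lists and the named genes were chosen with earlier results of these data known. Named genes are the 5 of the entry, up to 12 called genes per direction and fit with RPKM 2 or above and groups that do not overlap (the smallest p where fewer than 4), called list members, and up to 2 further members per list described. Lists are given by counts and medians. Lists not named in the text, such as Wnt, Notch, HOX and hypoxia genes, are not reported here. A called gene withheld from this text is not reported here.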

Additional observations from a re-analysis of the deposited data

Results flagged for a closer look

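Results are given here where the difference between the knockdowns at day 7 was unlike that at day 0, by a test of that difference in the fit with batch as a block. OR2I1P differed by -7.22 ± 0.31 (SE, log2, sh003 minus sh004 at day 7 less the same at day 0, adjusted p = 1.05e-05, limma), with -7.40 at day 7 and -0.19 at day 0. VCAM1 differed by -4.06 ± 0.25 (adjusted p = 0.000166), with -4.18 at day 7 and -0.12 at day 0. ENSG00000252379, a gene of 90 bases with at most 5 reads in any monolayer library, differed by 2.80 ± 0.33 (adjusted p = 0.0461). Without the block the adjusted p of all 3 was 1. Both batch 3 libraries are day 0 libraries, and in them OR2I1P was at 3.40 RPKM with sh003 sh1 and 4.79 RPKM in the control and VCAM1 at 1.04 RPKM with sh003 sh1 and 1.165 RPKM in the control, while the other day 0 libraries had at most 0.151 RPKM of OR2I1P and 0.101 RPKM of VCAM1. Without both batch 3 libraries the fit without the block called 3 genes for this difference, all lower.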

How the results depend on the processing

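Counts of called genes moved with most settings. No called gene named in the text changed sign, while SOX4, SOX9 and USP36, which were not called, did. In the all-batch fit 4 genes became 0 at pseudocount 0.1, with RPKM 5 or above, with median-ratio scaling and with quantile scaling, 8 at pseudocount 1, 43 with no filter, 2 with the libraries compared alone, 2 with the 7 day 7 libraries, 15 without the batch 3 libraries, 23 without the 2 libraries with contradicting tags and 139 with the replicate block on batch. Leaving out 1 library at a time gave 0 to 343, the highest without sh004 sh1 at day 7. In batch 2 alone 5 became 3 at pseudocount 1, with RPKM 5 or above and with quantile scaling, 0 with no filter, voom, no trend or the libraries compared alone, 26 without sh003 sh1 (the library with the contradicting tag), and 0 to 63 with 1 library left out. With the block 139 became 71 at pseudocount 0.1, 76 with no filter, 55 with voom, 210 without the contradicting tags, 8 with the 7 day 7 libraries, and 7 (without sh003 sh2 batch 2) to 2271 (without sh004 sh1) with 1 library left out. Against day 0, 0 became 12 with no filter, 3 without batch 3, 3 with the replicate block, and 0 to 8 with 1 library left out. Median-ratio and quantile scaling moved the median of all genes to 0.04 and -0.06. With 2 sh004 libraries, 1 per shRNA, no difference between shRNAs of a transcript can be tested, and leaving out either leaves a lone library assumed to vary like the others. The causes were not tested.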
